A study of Mus musculus with 13 samples.

Results

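The angiopoietins Angpt1 and Angpt2, their receptor Tek (Tie2), the related receptor Tie1 and the receptor phosphatase Ptprb (VE-PTP) were followed in mouse retina. These 5 genes were taken from 16797 genes with a symbol on the array, and their probes were found by the RefSeq identifier or gene symbol printed for each probe. They had 6 probes: 2 for Angpt1 and 1 each for Angpt2, Tek, Tie1 and Ptprb. Another 3 probes come from cDNA clones whose clone or product name belongs to Tek (1 probe) or Ptprb (2 probes). The clone probes lie outside this choice, were added after the values had been seen, and are reported apart.

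RNA from 3 kinds of retinal sample was measured on 13 Agilent 2-colour arrays: 6 labelled tip, 4 labelled stalk and 3 nonvascular retina controls. Tip cells stand at the front of a vessel sprout and extend filopodia, stalk cells form the tube behind, and the question was which genes mark retinal tip cells. The sample was in Cy5 (red), and the same commercial mouse reference RNA was in Cy3 (green) on every array, with no dye swap. Extraction kit, amplification and species are given in the labels, whereas strain, genotype, age and the way the cells were collected are not stated in the sources used here. The labels do not tie samples to animals, so p-values measure only the spread between these samples, part of which may be technical. Every level below is a log2 ratio of sample over reference, which can be compared between groups for a probe but not between probes. A difference was called when its p in the linear model of limma, adjusted over all 39354 probes of that comparison, was under 0.05.

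Angpt1 and Angpt2 are secreted ligands of Tie2, the receptor tyrosine kinase of endothelium encoded by Tek. Angpt1, made largely by mural and other cells around vessels, activates the receptor, while Angpt2, made and stored by endothelial cells, often opposes it and is known from sprouting vessels, including those of the mouse retina. Tie1 has no ligand of its own that is firmly established and works in complex with Tie2, and the phosphatase Ptprb removes phosphate from Tie2 and from the VE-cadherin and VEGF receptor complexes.

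The 250 bases before the transcription start of the receptors Tie1 and Tek, both on chromosome 4, are shown because the Tie1 probe was called higher in vascular samples than in nonvascular retina and the Tek member probe was not. That Tek probe was dim, however. The Tek clone probe was called higher in stalk than in nonvascular retina (1.14, limma adjusted p = 0.000101) but not in tip. They are given 5′ to 3′ in the direction of the gene, from RefSeq on GRCm38.p6, at chr4:118489850-118490099 (minus strand) for Tie1 and chr4:94739039-94739288 (plus strand) for Tek. Capitals mark GGAA, the core bound by ETS factors, or TTCC, the same core on the other strand.
Tie1: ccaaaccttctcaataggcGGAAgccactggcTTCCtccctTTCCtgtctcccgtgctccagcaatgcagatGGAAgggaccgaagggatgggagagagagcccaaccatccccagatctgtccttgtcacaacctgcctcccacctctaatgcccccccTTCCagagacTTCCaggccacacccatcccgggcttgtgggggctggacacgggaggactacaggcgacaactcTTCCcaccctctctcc
Tek: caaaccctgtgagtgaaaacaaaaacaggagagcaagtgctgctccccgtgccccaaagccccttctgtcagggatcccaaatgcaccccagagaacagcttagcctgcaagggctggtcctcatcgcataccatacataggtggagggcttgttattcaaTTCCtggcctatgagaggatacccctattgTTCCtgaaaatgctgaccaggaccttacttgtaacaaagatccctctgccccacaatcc
Tie1 had 7 such cores, the nearest beginning 16 bases before the start, and 3.82% of 32851 RefSeq mouse promoters had as many or more in the same window. Tek had 2, at 59 and 89 bases before the start. At least 2 were present in 76.8% of promoters and at least 1 in 93.4%. These are matches of letters, not measured binding sites, and their part in the levels was not tested.

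The labels were set against marker genes. Of 24 endothelial markers, 23 were higher in tip and 22 in stalk than in nonvascular retina, with none lower, and the median marker differed by 2.91 and 3.20 on the log2 scale. Of 11 ganglion cell markers, 9 were lower in tip and 8 in stalk than in nonvascular retina, with none higher. Shares over all genes at their brightest probe were 15.1% higher and 20.1% lower in tip, and 14.9% higher and 22.3% lower in stalk. Not only endothelial lists rose: 13 of 17 pericyte and smooth muscle markers were higher in tip and 14 in stalk. So were 6 of 10 astrocyte genes in each group, and none of these 2 lists was lower. Net red intensity had a median per array of 105 to 292 in tip, 98.1 to 141 in stalk and 166 to 282 in nonvascular retina. The groups were scanned in turn (stalk, tip, nonvascular), so the order of scanning cannot be told apart from the group. Tip replicate 5 was scanned on another day, and the calls on the 5 genes were the same without it.

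Among the 5 genes, Angpt2 was higher and Ptprb lower in tip than in stalk, while Tie1, Tek and Angpt1 were not called. The 2 called members stand against a background of 1.34% of all probes called higher and 1.15% called lower in tip, or 1.75% and 1.93% of genes read at their brightest probe. The balance of directions over all probes depended on the scaling, with 62 higher and 218 lower after median centring of each array, 242 higher and 531 lower from the red channel alone, and 527 higher and 452 lower in the fit reported here. Against nonvascular retina, Angpt2, Ptprb and Tie1 were higher in both tip and stalk. There the backgrounds are wide: 10.8% of probes were called higher and 16.2% lower in tip (2602 and 6644 probes after median centring, against 4241 and 6364), and 10.7% higher and 18.1% lower in stalk. Of genes at their brightest probe, 15.1% were higher and 20.1% lower in tip, and 14.9% higher and 22.3% lower in stalk.

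**Figure D1:**
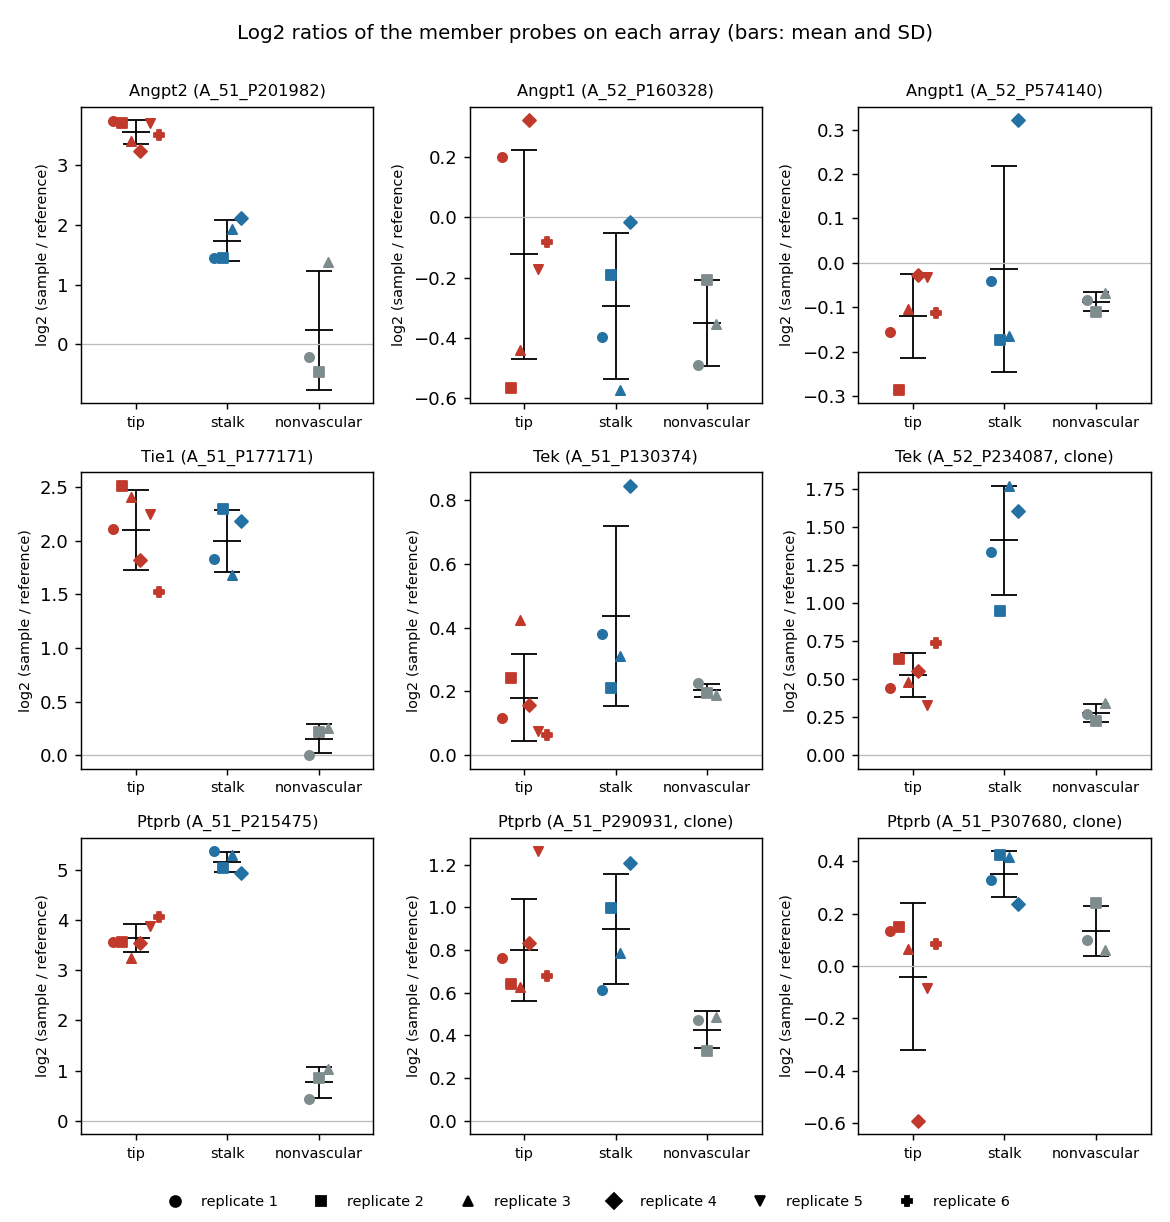
Log2 ratio of sample over reference (y axis, its own scale in each panel) on each array for the 6 member probes and 3 clone probes, with tip (6 arrays), stalk (4) and nonvascular (3) from left to right; marker shapes give the replicate number, and black bars the mean and SD. Angpt2 lies highest in tip and Ptprb highest in stalk with no overlap between groups, and the Angpt1 and Tek probes inside the choice of members stay within 1 log2 unit of 0.

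The ligand Angpt2 stood in the order tip, stalk, nonvascular retina (probe A_51_P201982, chromosome 8, minus strand). Its log2 ratio on the tip arrays was 3.25 at the lowest, 3.61 at the median and 3.74 at the highest. On the stalk arrays it was 1.45, 1.44, 1.93 and 2.13. Every tip array was thus above every stalk array. It averaged 3.56 ± 0.20 over the 6 tip arrays and 1.74 ± 0.35 over the 4 stalk arrays (SD), a log2 difference of 1.82 ± 0.29 (SE) or 3.53-fold (limma, adjusted p = 0.00698). Higher in 6 of 6 tip arrays than in any stalk array, Angpt2 nevertheless missed the threshold when the brightness of each array entered the model (difference 1.88, adjusted p = 0.0503). Over all 27 alternatives its difference was 1.62 to 2.44, with adjusted p from 0.000127 to 0.0503.

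In nonvascular retina the Angpt2 log2 ratio was −0.21, −0.46 and 1.38. The third array was just under the lowest stalk array and the other two were far below. Tip exceeded nonvascular retina by 3.32 ± 0.32 (SE, adjusted p = 5.1e-06, 9.98-fold) and stalk did so by 1.50 ± 0.35 (SE, adjusted p = 0.00512, 2.83-fold). Both were called in 27 of 27 alternatives. For tip the difference was 2.97 to 4.25, the highest from the red channel alone, with limma adjusted p up to 0.000732. For stalk it was 1.15 to 2.07, with limma adjusted p up to 0.0492, just under the threshold. Without nonvascular replicate 3 these differences were 3.89 and 2.07, and that between tip and stalk stayed at 1.82 with its SE at 0.15 in place of 0.29. The same array stood apart in the glial markers: the median log2 ratio of 10 astrocyte genes was 1.87 to 2.31 in tip and 1.40 to 1.93 in stalk, against 1.40 on nonvascular replicate 3 and −0.09 and −0.04 on the other nonvascular arrays. Their summed red signal was 48030 to 179800 in tip and 63060 to 68340 in stalk, against 61350 on nonvascular replicate 3 and 14530 and 6893 on the other two. Among the nonvascular arrays, the median of 8 Mueller glia genes was 2.34 on replicate 3 and 1.55 and 1.06 on the others, and the median of 24 endothelial markers was 0.29 there and 0.07 and 0.24 on the others. The part of these cell types in the Angpt2 values was not tested. Of the astrocyte genes, 6 were higher and none lower than in nonvascular retina in each vascular group, beside 15.1% of all genes higher in tip and 14.9% in stalk. The list was split: Gfap, Pax2 and Aqp4 were called in neither group, Aldh1l1 only in tip and Fabp7 only in stalk. None of the 10 was called between tip and stalk (median −0.05). In bulk samples such as these, fewer cells of a type and less RNA per cell cannot be told apart.

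Angpt1, the activating ligand, had dim probes and was called in no comparison. Its brighter probe (A_52_P160328, chromosome 15, minus strand) had net red intensities of 28.5 to 198 in tip, 22.8 to 49.8 in stalk and 51.2 to 65.7 in nonvascular retina, and was well above background in red on 6 of 6 tip, 3 of 4 stalk and 3 of 3 nonvascular arrays. Its log2 ratio was −0.57, −0.13 and 0.32 at the lowest, median and highest tip array, −0.40, −0.19, −0.57 and −0.01 in stalk, and −0.49, −0.21 and −0.36 in nonvascular retina, so the 3 groups overlapped. Tip minus stalk was 0.17 ± 0.17 (SE, adjusted p = 0.654), with a 95% interval of −0.19 to 0.54. The other Angpt1 probe (A_52_P574140), 69.3 kb away in the coordinates of the files, was well above background in red on 5 of 6 tip, 2 of 4 stalk and 2 of 3 nonvascular arrays. Its tip minus stalk difference was −0.10 ± 0.09 (SE, adjusted p = 0.595). The offset of 50 intensity units added before the log shrinks differences of probes this dim, and these intervals therefore bound the compressed scale, not the RNA.

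Tie1, the receptor without an established ligand, was higher in both vascular groups than in nonvascular retina and overlapped between tip and stalk (probe A_51_P177171, chromosome 4, minus strand). Its log2 ratio in tip was 1.52 at the lowest, 2.18 at the median and 2.52 at the highest array. In stalk it was 1.83, 2.30, 1.68 and 2.19, and in nonvascular retina 0.00, 0.22 and 0.25. All stalk values lay inside the range of tip, and every vascular array was above every nonvascular one. The differences from nonvascular retina were 1.95 ± 0.20 for tip (SE, adjusted p = 9.67e-06, 3.86-fold) and 1.84 ± 0.22 for stalk (SE, adjusted p = 2.87e-05, 3.59-fold). Both were called in 27 of 27 alternatives, but their sizes moved with the processing, at 1.54 to 3.25 for tip and 1.36 to 3.10 for stalk. The net red intensity of Tie1 in nonvascular retina was 50.8 to 59.7, close to the offset of 50. Between tip and stalk the difference was 0.10 ± 0.18 (SE, adjusted p = 0.822), with a 95% interval of −0.30 to 0.51, and its sign turned under 5 of 27 alternatives. The scanner's own log ratios gave −0.40 (adjusted p = 0.241).

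Tek, the gene of the angiopoietin receptor, was not called on its member probe and was lower in tip than in stalk on the clone probe. The probe with the RefSeq identifier (A_51_P130374, chromosome 4, plus strand) had a net red intensity of 26.5 to 106 in tip, 43.1 to 104 in stalk and 33.7 to 54.4 in nonvascular retina. The reference channel was well above background there on 2 of 6 tip, 1 of 4 stalk and none of 3 nonvascular arrays, so the denominator of its ratio is poorly measured. Its log2 ratio was 0.06, 0.14 and 0.42 at the lowest, median and highest tip array, 0.38, 0.21, 0.31 and 0.85 in stalk, and 0.23, 0.20 and 0.19 in nonvascular retina. Tip and stalk overlapped. Their difference of −0.26 ± 0.11 (SE, adjusted p = 0.249, unadjusted p = 0.0365) was not called under any of 27 alternatives, although its size ranged from −1.07 to −0.12. Stalk minus nonvascular retina was 0.23 ± 0.13 (SE, adjusted p = 0.219) and was called after median centring (0.70, adjusted p = 0.0252) and from the red channel alone (0.66, adjusted p = 0.0267).

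The Tek clone probe (A_52_P234087, same chromosome and strand) had net red intensities of 160 to 642 in tip, 442 to 698 in stalk and 232 to 501 in nonvascular retina. Its log2 ratio in tip was 0.33 at the lowest, 0.52 at the median and 0.74 at the highest array. In stalk it was 1.34, 0.95, 1.77 and 1.60, and in nonvascular retina 0.27, 0.22 and 0.34. Every stalk array exceeded every tip array on this probe, while tip and nonvascular retina overlapped. Tip minus stalk was −0.88 ± 0.13 (SE, adjusted p = 0.00421), a level 1.85-fold lower in tip. Stalk exceeded nonvascular retina by 1.14 ± 0.16 (SE, adjusted p = 0.000101), and tip minus nonvascular retina was 0.25 ± 0.14 (SE, adjusted p = 0.246). Which transcript of the Tek locus the clone probe reads was not tested, so its values are not added to those of the member probe.

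Ptprb, the phosphatase of the Tie2 and VE-cadherin complexes, stood in the order stalk, tip, nonvascular retina (probe A_51_P215475, chromosome 10, plus strand). Its log2 ratio was 3.25 at the lowest, 3.57 at the median and 4.05 at the highest tip array. In stalk it was 5.38, 5.04, 5.29 and 4.95, and in nonvascular retina 0.42, 0.84 and 1.03. None of the 3 groups overlapped. It averaged 3.64 ± 0.28 over the 6 tip arrays and 5.16 ± 0.20 over the 4 stalk arrays (SD), a log2 difference of −1.52 ± 0.16 (SE, adjusted p = 0.000321), so that Ptprb was 2.87-fold lower in tip. The call held in 27 of 27 alternatives, at −1.74 to −1.24, with limma adjusted p from 0.000143 to 0.0432. Above nonvascular retina, tip stood by 2.88 ± 0.17 (SE, adjusted p = 1.01e-07, 7.36-fold) and stalk by 4.40 ± 0.19 (SE, adjusted p = 6.64e-09, 21.1-fold). Both were called in 27 of 27 alternatives, but their sizes moved with the processing, at 2.48 to 3.74 for tip and 3.97 to 5.49 for stalk, the last from the red channel alone.

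The 2 Ptprb clone probes did not separate tip from stalk at the threshold. On A_51_P290931, with net red intensities of 92.3 to 317 in tip, 102 to 215 in stalk and 97.9 to 168 in nonvascular retina, the mean log2 ratio was 0.80 ± 0.24 in tip, 0.90 ± 0.26 in stalk and 0.43 ± 0.09 in nonvascular retina (SD over 6, 4 and 3 arrays). Its tip minus stalk difference was −0.10 ± 0.13 (SE, adjusted p = 0.753), and only stalk minus nonvascular retina was called (0.47 ± 0.16 SE, adjusted p = 0.0388). On A_51_P307680, close to background, tip minus stalk was −0.39 ± 0.12 (SE, adjusted p = 0.128). The 4 stalk arrays (0.33, 0.42, 0.42 and 0.24) lay above all 6 tip arrays (−0.59 to 0.15) on this probe, but no comparison was called.

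**Figure D2:**
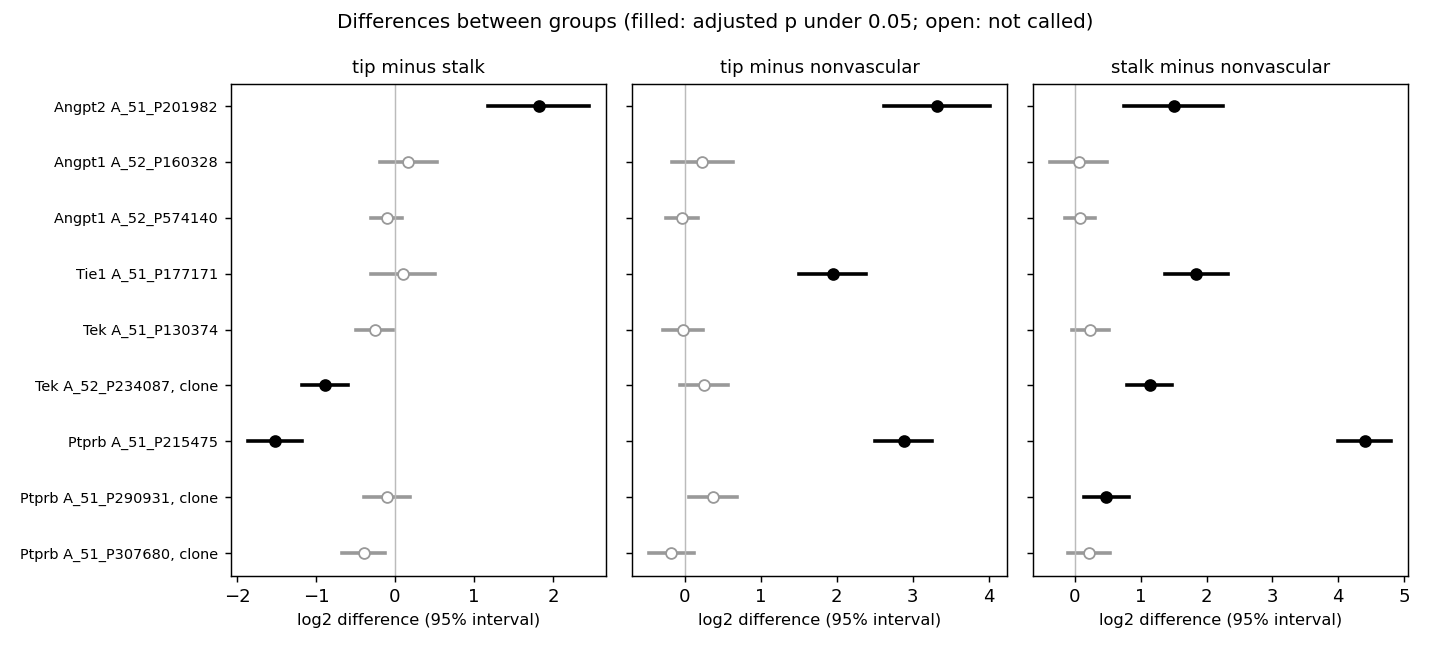
Log2 differences (x axis) with 95% intervals for the 6 member probes and 3 clone probes in tip minus stalk, tip minus nonvascular and stalk minus nonvascular, from left to right; filled points have an adjusted p under 0.05. Between tip and stalk, Angpt2 lies at 1.82, Ptprb at −1.52 and the Tek clone probe at −0.88, and the other 6 probes are open.

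Markers of other vessel cells moved between tip and stalk beside these genes. Of 24 endothelial markers, the coagulation factor gene Vwf was higher in tip (0.99 ± 0.23 SE, limma adjusted p = 0.0454) and 5 were lower (median −0.31): the factors Sox17 (−1.44 ± 0.12 SE, adjusted p = 5.42e-05) and Fli1 (−1.14 ± 0.13, adjusted p = 0.000644), the tight junction gene Cldn5 (−1.16 ± 0.14, adjusted p = 0.000898), the VEGF receptor Flt1 (−0.94 ± 0.11, adjusted p = 0.000925) and Egfl7. Of 17 pericyte and smooth muscle markers on the array, all past the filter on dim probes, 10 were lower and none higher in tip (median −0.72), among them Art3 (−1.03 ± 0.08 SE, adjusted p = 4.87e-05), Foxc1 (−1.15 ± 0.12, adjusted p = 0.000326), Higd1b (−1.10 ± 0.16, adjusted p = 0.00284) and Vtn (−1.17 ± 0.17, adjusted p = 0.00367). The median log2 ratio of that list was 0.43 to 0.70 in tip, 1.31 to 1.77 in stalk and −0.40 to 0.06 in nonvascular retina. Its summed red signal was 16060 to 56870 in tip, 35460 to 38820 in stalk and 5388 to 8583 in nonvascular retina. Over all genes the median tip minus stalk difference was 0.006, with 1.75% called higher and 1.93% called lower in tip. The part of the pericyte markers in the Ptprb and Tek differences was not tested. Against nonvascular retina, 13 pericyte markers were higher in tip and 14 in stalk, beside 15.1% and 14.9% of all genes.

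The members were therefore also read against the endothelial markers of the same array. Of these markers, 1 was itself called higher and 5 lower in tip, so the yardstick is not fixed between tip and stalk. Its shift enters every difference below, and fewer endothelial cells and a changed state cannot be told apart in it. The median log2 ratio of the 24 markers was 2.93 ± 0.14 over the 6 tip arrays and 3.25 ± 0.11 over the 4 stalk arrays (SD), 0.32 lower in tip (two-sided exact permutation test, p = 0.0143). Relative to it, Angpt2 stood at 0.63 ± 0.18 in tip and −1.51 ± 0.30 in stalk, a difference of 2.14. Ptprb stood at 0.72 ± 0.16 in tip and 1.91 ± 0.19 in stalk, a difference of −1.20. In both, no tip array overlapped a stalk array, and both had p = 0.00476 in the exact permutation test, the smallest that 210 arrangements of 6 and 4 arrays allow, or 0.0119 adjusted over the 5 members. The differences of Angpt1 (0.49, exact permutation adjusted p = 0.119), Tie1 (0.43, exact permutation adjusted p = 0.190) and Tek (0.07, exact permutation p = 0.695) did not pass, and that of Tek was below 0 under 7 of 18 alternatives. Tek was read here at its dim member probe. The brighter Tek clone probe (−0.88 in tip minus stalk) was not read against the markers.

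**Figure D3:**
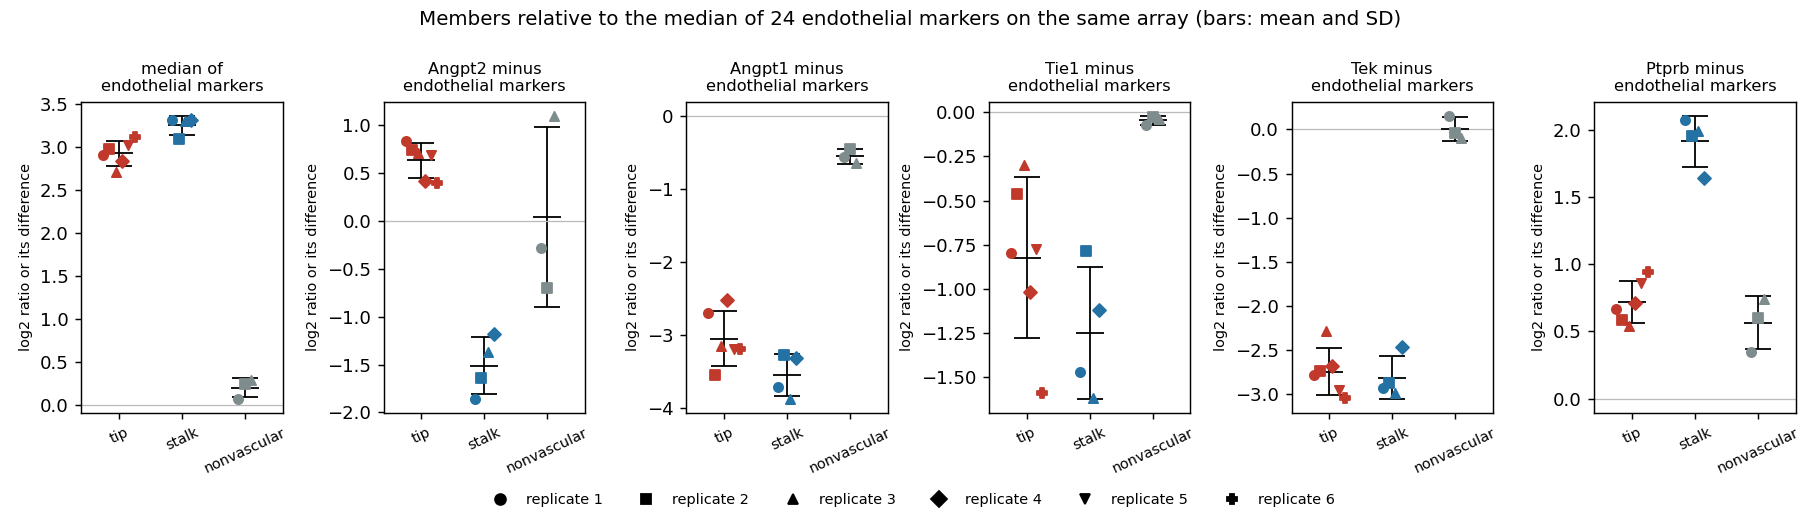
Median log2 ratio of the 24 endothelial markers (left panel) and the 5 members minus that median on the same array (other panels), in tip, stalk and nonvascular arrays, with the mean and SD as black bars and the replicate number as marker shape. Angpt2 lies at 0.40 to 0.84 in tip and −1.86 to −1.18 in stalk, and Ptprb at 0.54 to 0.94 in tip and 1.64 to 2.07 in stalk.

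The balance between members on the same array was compared for 5 pairs, each gene at its brightest member probe. Angpt2 over Tek, a ligand over its receptor, was 3.38 ± 0.27 in tip and 1.30 ± 0.23 in stalk on the log2 scale (SD over 6 and 4 arrays), and Angpt2 over Angpt1 was 3.68 ± 0.45 in tip and 2.03 ± 0.38 in stalk. The differences of 2.08 and 1.65 each had an exact permutation p of 0.00476, adjusted over the 5 pairs to 0.00595. Ptprb over Tek was 3.46 ± 0.41 in tip and 4.73 ± 0.42 in stalk, and Ptprb over Tie1 was 1.54 ± 0.60 in tip and 3.17 ± 0.48 in stalk. These differences, −1.26 and −1.62, had the same exact permutation p and adjusted p. Each pair that passed holds Angpt2 or Ptprb, both already called between tip and stalk, with a partner that was not called. These tests therefore largely restate those calls. The receptor pair Tie1 over Tek was 1.92 ± 0.31 in tip and 1.56 ± 0.35 in stalk, and its difference of 0.36 did not pass (exact permutation adjusted p = 0.114).

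Pairs with Tek or Angpt1 rest on dim probes. With the scanner's own log ratios, Ptprb over Tek differed by −0.30 (exact permutation adjusted p = 0.595) and Angpt2 over Angpt1 by 1.12 (exact permutation adjusted p = 0.214), while Angpt2 over Tek passed in 17 of 17 alternatives. Ptprb over Tie1, a pair without those probes, also missed the threshold there (−0.98, exact permutation adjusted p = 0.0595). The level of a pair is relative to the reference RNA and is not a ratio of molecules. The brighter Tek clone probe (−0.88 in tip minus stalk) was not used in these pairs.

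**Figure D4:**
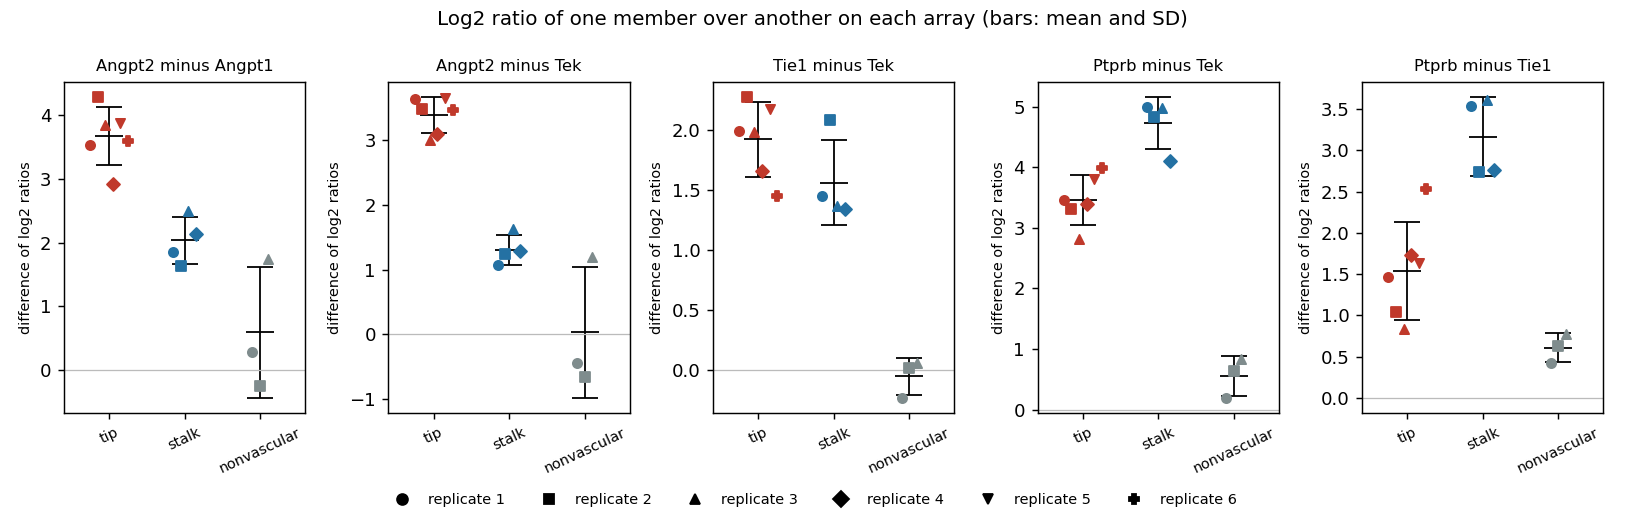
Difference between the log2 ratios of 2 members on each array (y axis) for 5 pairs, in tip, stalk and nonvascular arrays, with the mean and SD as black bars and the replicate number as marker shape. The tip and stalk arrays do not overlap in 4 pairs and overlap in Tie1 minus Tek, at 1.46 to 2.27 in tip and 1.34 to 2.09 in stalk.

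Of 46 other genes of the Tie pathway, 3 rose and 4 fell in tip relative to stalk, with a median difference of 0.06. Of all genes at their brightest probe, 1.75% were higher and 1.93% lower in tip. Among 25 adaptors and kinases at the receptors, the PI3-kinase subunit genes Pik3cb (0.50 ± 0.08 SE, adjusted p = 0.00755) and Pik3r2 (0.31 ± 0.07, adjusted p = 0.0457) were higher. The focal adhesion kinase gene Ptk2 was lower (−0.53 ± 0.08, adjusted p = 0.00333). Of 5 integrins listed as binding angiopoietins, Itgb3 was higher (0.37 ± 0.08, adjusted p = 0.0390). Of 9 genes listed as transcription factors or as downstream targets, 3 were lower: Gata2 (−0.86 ± 0.07, adjusted p = 8.76e-05), an endothelial factor, Mef2c (−1.02 ± 0.18, adjusted p = 0.0136), and Foxo1 (−0.60 ± 0.14, adjusted p = 0.0476), the factor that Akt restrains below Tie2. The list gives Gata2, Mef2c and Foxo1 the same role and does not say which of them lie below the receptor. None of the ligand Angpt4, the binding partner Svep1, the 3 partners and substrates of Ptprb and the 2 shedding proteases was called between tip and stalk.

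Against nonvascular retina, 18 of the 46 genes were higher and 5 lower in tip (median 0.23), and 16 were higher and 9 lower in stalk (median 0.24). Over all genes, 15.1% were higher and 20.1% lower in tip, and 14.9% higher and 22.3% lower in stalk. The share of higher genes in the list was thus above that of all genes in both groups, and the share of lower genes was not. Cdh5 and Kdr are in both this list and the endothelial markers. The 4 higher genes with the smallest p in tip were Gata2 (1.91 ± 0.08 SE, adjusted p = 7.03e-09), the adhesion molecule Cdh5 (3.63 ± 0.17, adjusted p = 1.62e-08), Foxo1 (2.04 ± 0.16, adjusted p = 6.68e-07) and the exchange factor Fgd5 (1.97 ± 0.16, adjusted p = 9.52e-07). In stalk they were Gata2 (2.77 ± 0.09, adjusted p = 5.7e-10), Cdh5 (3.77 ± 0.19, adjusted p = 2.18e-08), Foxo1 (2.64 ± 0.17, adjusted p = 1.51e-07) and Fgd5 (2.41 ± 0.17, adjusted p = 3.26e-07). The 4 lower genes with the smallest p in each vascular group were the adaptors Grb2 (−0.94 in tip and −0.80 in stalk) and Grb14 (−2.15 and −1.57), the flow-responsive factor Klf2 (−0.94 and −1.004) and the kinase Pak1 (−0.70 and −1.17). Both proteases listed for shedding the receptors, Adam17 (1.09 in tip and 1.37 in stalk) and Mmp14 (3.02 and 2.40), were higher and are named here after their values were seen.

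**Figure D5:**
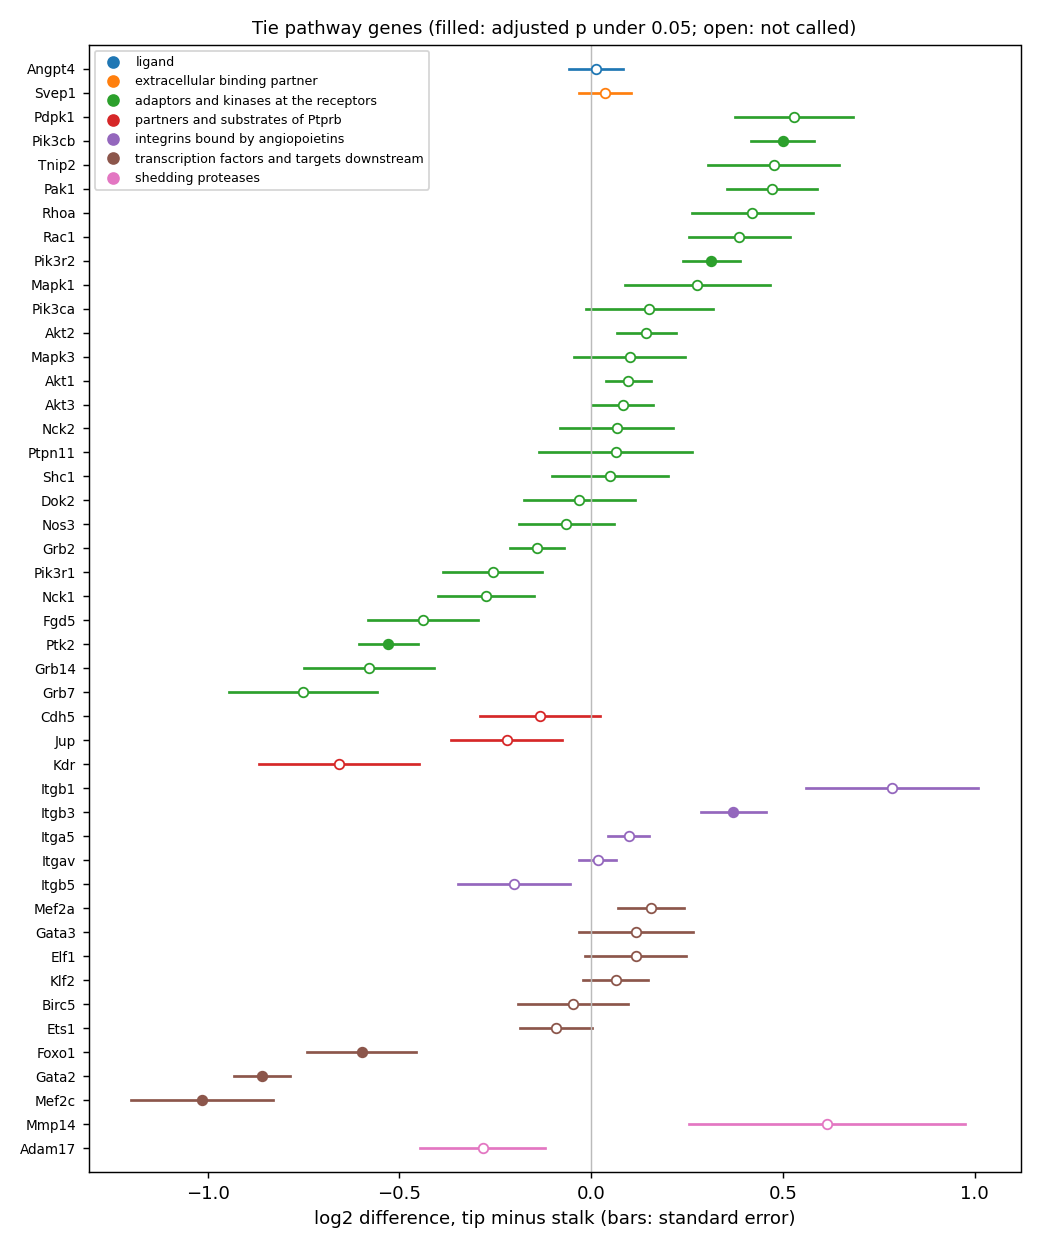
Log2 difference, tip minus stalk (x axis), with its standard error for 46 genes of the Tie pathway, coloured by role; filled points have an adjusted p under 0.05. The 3 higher and 4 lower called genes lie between −1.02 (Mef2c) and 0.50 (Pik3cb).

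The genes whose log2 ratios ran closest to each member were taken from 14900 genes over all 13 arrays and from 14995 over the 10 tip and stalk arrays. These are descriptions: the arrays fall into separate groups and share the reference RNA. The highest of this many values over 10 arrays can also be large among unrelated genes. Angpt2 was closest over 13 arrays to the vasoactive peptide gene Adm (Pearson r = 0.972), the carnitine acyltransferase gene Crot (0.971) and the growth factor gene Vegfa (0.967). Over tip and stalk alone it was closest to Fam3c (0.979), to Esm1 (0.975), which encodes a proteoglycan of endothelium, and to Vti1b (0.972). Ptprb was closest to Trim47 (0.994), Kank3 (0.992) and Higd1b (0.991) over 13 arrays, and to Kank3 (0.989), Higd1b (0.983) and Ifi27 (0.981) over tip and stalk. Higd1b is also in the pericyte list above. Tie1 was closest to Gimap1 (0.983), the Notch receptor gene Notch4 (0.979) and Map3k11 (0.977), and over tip and stalk to Maged2 (0.931), Uaca (0.926) and Gfus (0.917). Over 13 arrays the dim probes had lower values. Closest to Tek there were Elk4 (0.859), Nxpe2 (0.858) and Abi3bp (0.855), and closest to Angpt1 were Wfdc21 (0.864), Cstdc6 (0.846) and Kirrel3 (0.818). Over tip and stalk the closest to Tek were Armcx5 (0.928), Cfap410 (0.923) and Utp11 (0.915), and to Angpt1 Cstdc6 (0.917), Wfdc21 (0.911) and Il1f6 (0.888).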

How the data were processed

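Per the file headers and the submitters' processing notes, each scan was quantified in Agilent Feature Extraction 8.5.1.1. The deposited array files hold each spot's mean intensity and local background intensity, not normalized, and a log10 ratio that the authors' software derived from dye-normalized signals. A deposited table of linear ratios, red over green, was an alternative; of its values 99.9% or more on each array equalled the antilog of that log10 ratio within 0.001 (log10), and 631 to 1555 of 41174 probes were missing. Background was corrected with normexp (offset 50) and each array was loess-normalized with limma 3.58.1 (R 4.3.3, files read with data.table version 1.17.8). Control spots were given weight 0, outlier-marked spots were dropped and repeated spots averaged. Probes had to be well above background in red on 3 of 13 arrays, which left 39354, all 6 member probes among them. Group means were fitted to all 13 arrays with Benjamini-Hochberg adjustment, and the steps were tested on simulated data. The number of arrays limits the precision.

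Symbols came from RefSeq (GRCm38.p6) for all but 17860 of 41174 probes. The files name no genome build. The 5 members, the lists and the tests were chosen with earlier results of these data known. Named genes are every member, up to 4 called genes per list, direction and comparison with the smallest p, and the 3 genes closest to each member; the text gives part of them. Marker lists cover endothelial, pericyte and smooth muscle, astrocyte, Mueller glia, ganglion cell, amacrine with horizontal and bipolar, photoreceptor, microglia and macrophage, and erythroid cells. Alternatives changed the signal, scaling, filter, probe choice, samples or model. They are not all distinct, since the deposited ratios nearly repeat the scanner's log ratios. Outside Angpt1, the filter and probe choices left the differences of the member probes themselves unchanged.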

Additional observations from a re-analysis of the deposited data

Results flagged for a closer look

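Single tip arrays stood apart on the 2 Ptprb clone probes. On A_51_P290931, tip replicate 5 had a log2 ratio of 1.264, against 0.627 to 0.831 on the other 5 tip arrays. On A_51_P307680, tip replicate 4 had −0.591, against −0.084 to 0.149 on the other 5. These 2 came from a search of 18 groups of arrays, and chance alone gives such a gap in about 5% of groups. The search took in tip and stalk arrays, and found none on the 6 member probes. Groups of 3 were not searched, so it does not bear on the nonvascular arrays, where replicate 3 had 1.383 for Angpt2 and the other two −0.207 and −0.459.

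Clone probes outside the choice of members also differed from the nonvascular controls. Stalk exceeded nonvascular retina by 1.135 on the log2 scale on the Tek clone probe (limma, adjusted p = 0.000101) and by 0.473 on the Ptprb clone probe A_51_P290931 (adjusted p = 0.0388).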

How the results depend on the processing

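The member counts were the same under 26 of 28 alternatives for tip minus stalk, 28 of 28 for tip minus nonvascular retina (3) and 25 of 28 for stalk minus nonvascular retina (3, otherwise 4). For tip minus stalk the count of 2 became 1 with array brightness in the model, where Angpt2 had an adjusted p of 0.0503, and 3 with the clone probes counted, an alternative added after the data were seen. The scanner's log ratios and the deposited ratios both weakened Angpt2 minus Angpt1 (1.124), Ptprb minus Tek (−0.305) and Ptprb minus Tie1 (−0.982), and turned Tek and Tie1 relative to the endothelial markers (−0.728 and −0.051), Tie1 in tip minus stalk (−0.398) and Angpt1 A_52_P160328 in stalk minus nonvascular retina (−0.085). Tek relative to the endothelial markers was also below 0 after median centring (−0.084), from the red channel alone (−0.35), with the mean of each gene's probes (−0.056) and with a normexp offset of 16, added after the data were seen (−0.162). That offset also turned Tie1 in tip minus stalk (−0.024), as did brightness in the model (−0.047). Median centring turned Angpt1 A_52_P574140 (0.093) and Tek (0.198) in tip minus nonvascular retina, and the red channel alone turned Tek (0.165). Without background subtraction, Angpt1 relative to the endothelial markers passed (0.469, exact permutation adjusted p = 0.0317). Leaving out 1 array at a time gave −0.027 to 0.183 for Tek and 0.385 to 0.593 for Angpt1 relative to the markers (Angpt1 passing without tip replicate 2), 0.287 to 0.536 for Tie1 minus Tek (passing without stalk replicate 2), −0.003 to 0.221 for Tie1 in tip minus stalk, −0.157 to 0.007 for Angpt1 A_52_P574140 in tip minus stalk, −0.051 to 0.001 in tip minus nonvascular retina and −0.04 to 0.125 in stalk minus nonvascular retina, and −0.036 to 0.15 for Angpt1 A_52_P160328 in stalk minus nonvascular retina. The cause of these changes was not tested.

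The labels give no pairing by replicate number. Deviations of same-numbered arrays from their own group means correlated at −0.143 to 0.0733 in 10 pairs across groups. Whether samples shared an animal cannot be told from these values. A replicate block kept the member counts at 2, 3 and 3, and gave −0.064 and −0.003 for the 2 Angpt1 probes in stalk minus nonvascular retina. Over all probes, tip minus stalk calls numbered 979, against 714 with the replicate block, 280 after median centring, 238 with brightness in the model, 479, 496, 585 and 599 without stalk replicates 1 and 3 or tip replicates 2 and 3, and 1831 without tip replicate 6. A slide block was not run because each slide holds 1 array, and leaving out the other scan day equals leaving out tip replicate 5. Low signal over background limits what the Tek and Angpt1 member probes can show.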

Other observations

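Markers of cells outside vessels gave no call between tip and stalk in the ganglion cell, amacrine with horizontal and bipolar, photoreceptor, microglia and macrophage, and erythroid lists, and 1 of 8 Mueller glia genes was lower in tip, the glutamine synthetase gene Glul (−0.99 ± 0.13 SE, limma adjusted p = 0.00164). Against nonvascular retina, 7 of 11 microglia and macrophage genes were lower in tip and 6 in stalk, among them the complement gene C1qa (−1.22 in tip and −1.25 in stalk). Of all genes, 20.1% were lower and 15.1% higher in tip, and 22.3% lower and 14.9% higher in stalk. Of 13 amacrine, horizontal and bipolar genes, 5 were lower and 1 higher in each vascular group, and of 12 photoreceptor genes 5 were lower in tip and 4 in stalk. Of 3 erythroid genes tested, 2 were higher in tip and 1 in stalk, and of 8 Mueller glia genes 2 were higher and 2 lower in tip, and 1 higher and 1 lower in stalk.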
